A study of Mus musculus with 20 samples.

Results

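The 32 genes described here encode the subunits of glutamate receptors, the vesicular glutamate transporters and the scaffold and adhesion proteins of glutamatergic synapses. They were chosen by symbol and fall into 7 classes: 4 AMPA, 7 NMDA and 5 kainate receptor subunits, 1 delta receptor, 6 metabotropic receptors, 3 vesicular transporters and 6 scaffold or adhesion genes. All 32 were found among the 43629 genes of the count table, and all 32 passed the filter on low counts in each of the 5 comparisons. The RNA came from nuclei of mouse spinal cord, sorted by flow cytometry on NeuN, a protein of neuronal nuclei. Healthy mice were set against mice with experimental autoimmune encephalomyelitis (EAE), an inflammatory disease that immunization induces in the central nervous system and that serves to model multiple sclerosis. EAE tissue was taken on day 15 after active immunization. The 4 groups were healthy NeuN-positive, EAE NeuN-positive, healthy NeuN-negative and EAE NeuN-negative nuclei, with 5 libraries each. The labels name no transgene, drug, strain, sex or age, and do not say what the healthy mice received. They do not say that the 5 libraries of a group come from separate mice, so p-values measure the spread between libraries, which may be technical.

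Glutamate released from a nerve terminal opens AMPA, NMDA and kainate receptors, which are ion channels built of 4 subunits each, and acts more slowly through metabotropic receptors, which signal through G proteins. Vesicular transporters load glutamate into synaptic vesicles, and scaffold proteins such as PSD-95 and the Shank family hold receptors in the postsynaptic density. In the spinal cord these genes serve excitatory transmission in sensory and motor circuits, and several are also transcribed in astrocytes and in oligodendrocyte precursor cells.

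Total counts per library ran from 3149209 to 37689267, and the shallowest library was one of EAE NeuN-negative nuclei (3149209 to 15525441 in that group). Mitochondrially encoded transcripts took 0.197 to 3.0% of counts in healthy NeuN-positive, 1.08 to 9.35% in EAE NeuN-positive, 0.367 to 4.51% in healthy NeuN-negative and 2.18 to 14.6% in EAE NeuN-negative libraries. Libraries numbered EAE 2, EAE 4 and healthy 3 had the highest share of their group in NeuN-positive nuclei, so the main counts are also given without them. The summed level of 14 neuron markers was 24300 to 27200 CPM (counts scaled to a common library size) in healthy and 20600 to 31600 CPM in EAE NeuN-positive nuclei, against 1600 to 4290 and 1160 to 3300 CPM in the NeuN-negative groups. Myelin genes were not absent from the NeuN-positive libraries: the sum of 8 oligodendrocyte markers reached 44400 CPM in 1 healthy library and 98300 CPM in 1 EAE library, where the group medians were 4590 and 12600 CPM. The 32 genes together took 0.534 to 0.614% of counts in healthy NeuN-positive libraries, 0.251 to 0.497% in EAE NeuN-positive, 0.119 to 0.169% in healthy NeuN-negative and 0.0708 to 0.113% in EAE NeuN-negative libraries. These ranges do not overlap between any pair of groups.

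Levels were compared between genes as CPM per kilobase of merged annotated exons. On this scale the highest mean in healthy NeuN-positive nuclei was that of Grik5, a high-affinity kainate receptor subunit, at 162 ± 83.3 (SD, n = 5). Grin1, the obligatory NMDA receptor subunit, followed at 117 ± 37.2, Grin2d, an NMDA subunit with slow channel closing, at 80.5 ± 25.3 and Gria4, an AMPA subunit, at 67.7 ± 10.5. Libraries of each of these genes overlapped those of the next. Gria1 came next at 36.3 ± 2.02 CPM per kilobase, and no Gria4 library was as low as any Gria1 library. Gria3, Dlg4, which encodes PSD-95, Gria2, Grik4, Shank1, Shank3, Grin2c, Slc17a6 and Grm4 followed between 27.1 and 18.5 CPM per kilobase, and in each neighbouring pair the libraries overlapped. At the low end stood Grm8, Homer1, Slc17a8, Grin3b and Grin2a, all under 1 CPM per kilobase, with Grin2a lowest at 0.353 ± 0.363. The merged length depends on how long the annotated transcripts are. Gria2 has 15548 annotated exon bases and Gria4 6305, so their levels per length were 25.9 and 67.7 while their levels before division by length were 403 ± 133 and 427 ± 66.2 CPM.

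**Figure D1:**
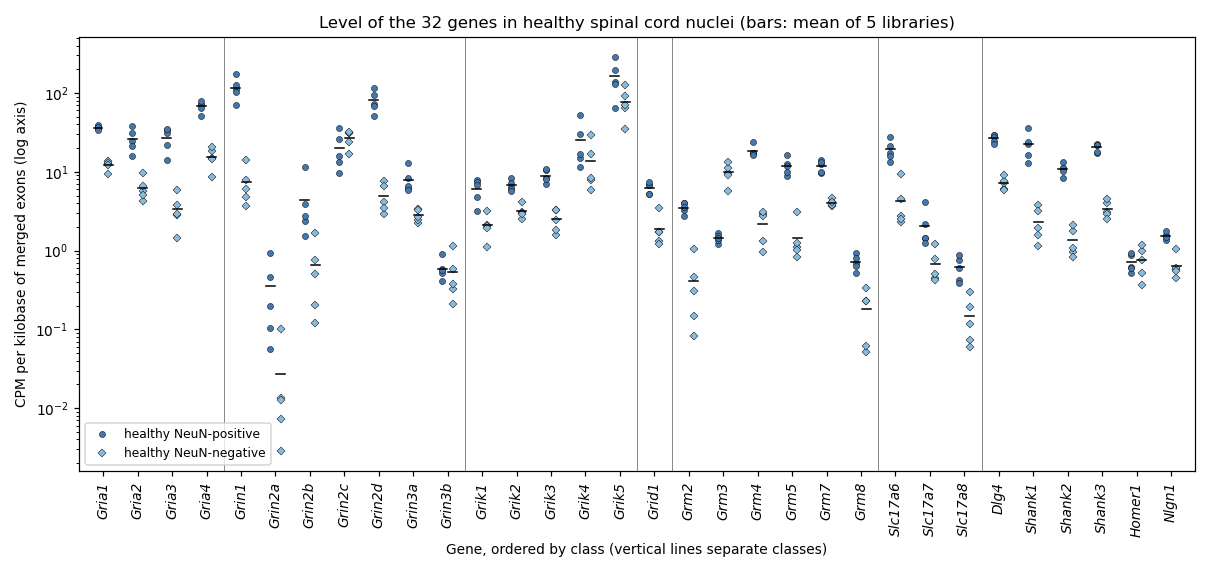
Level of each of the 32 genes in healthy spinal cord nuclei, in CPM per kilobase of merged exons on a log axis, with 1 point per library (5 NeuN-positive, 5 NeuN-negative) and a bar at the mean. Most genes sit higher in NeuN-positive nuclei, Grm3 sits lower, and the libraries of Grin2a, Grin2b, Grin2c, Grin3b, Grik4, Grik5 and Homer1 overlap between the sorts.

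The class leaders in healthy NeuN-positive nuclei were Gria4, Grin1, Grik5, Grid1, Grm4, Slc17a6 and Dlg4. Grin1 was at 1100, 1000, 1680, 1230 and 686 CPM in healthy NeuN-positive libraries 1 to 5, against 35.8, 46.4, 139, 77.0 and 58.0 CPM in the NeuN-negative ones. Grm4, a presynaptic metabotropic receptor that lowers transmitter release, was at 104, 104, 145, 103 and 98.5 CPM against 5.74, 7.84, 17.2, 16.5 and 18.5 CPM. In both genes library 3 was the highest of the NeuN-positive libraries, and no NeuN-negative library came near the lowest NeuN-positive one. Slc17a6, which encodes the vesicular transporter VGLUT2, was at 93.2, 115, 72.6, 86.3 and 150 CPM against 12.5, 14.8, 13.6, 24.7 and 50.6 CPM. Dlg4 was at 386, 392, 369, 326 and 298 CPM against 81.1, 95.6, 77.8, 101 and 120 CPM. Grid1, the delta receptor gene, whose product binds cerebellins and organizes synapses, was at 31.0, 40.8, 40.1, 31.5 and 44.2 CPM against 7.83, 10.1, 7.23, 10.3 and 20.6 CPM. None of these 5 genes overlapped between the sorts.

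In healthy mice 26 of the 32 genes were higher in NeuN-positive than in NeuN-negative nuclei, where 22.8% of all 17134 genes tested were higher, and 1 was lower, where 23.0% of all were (edgeR's quasi-likelihood test with Benjamini-Hochberg adjustment, adjusted p under 0.05, as throughout). The median log2 difference was 1.98 over the members and -0.01 over all genes tested. The largest were those of Grin2d (4.04 ± 0.38, SE), Grin1 (3.99 ± 0.45), Grin2a (3.95 ± 1.06), Shank1 (3.28 ± 0.42) and Grm2 (3.14 ± 0.60). Fewer nuclei of a cell type and less RNA per nucleus cannot be told apart in these pools. Without healthy 3 the counts were 27 and 1, where 4512 of all 17458 genes tested were higher and 4576 lower. In 24 genes the 5 NeuN-positive libraries all lay above the 5 NeuN-negative ones, as 16.6% of all genes did. Grin2c, Grin3b, Grik4, Grik5 and Homer1 were not called, with log2 differences of -0.38, 0.20, 0.88, 1.07 and -0.03. The titles number libraries 1 to 5 in each sort, and with the number as a replicate block Grik4 (0.96 ± 0.09, adjusted p = 9.96e-06) and Grik5 (1.05 ± 0.09, adjusted p = 4.18e-06, edgeR) were called higher and Grin2c (-0.51 ± 0.18, adjusted p = 0.0327, edgeR) was called lower, so that the count of lower genes went from 1 to 2. Of all 17134 genes 5683 were higher and 5560 lower with that block, against 3910 and 3938 without it.

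Without the replicate block, Grm3 was the 1 gene of the 32 that edgeR called lower in neuronal than in other nuclei in healthy mice. With limma voom Grin2c and Homer1 were called lower as well. Grm3 encodes a metabotropic receptor that lowers cAMP and is known from astrocytes as well as neurons. It was at 3.65, 4.19, 5.07, 4.59 and 4.39 CPM in NeuN-positive and at 29.8, 34.3, 17.3, 41.2 and 27.8 CPM in NeuN-negative libraries. The log2 difference was -2.73 ± 0.25 (adjusted p = 3.65e-06, edgeR), with no overlap, as for 17.2% of all genes in that direction. Markers of many non-neuronal cells were lower in NeuN-positive nuclei as well: all 8 of astrocytes, 7 of oligodendrocyte precursors, 8 of microglia, 6 of endothelium and 4 of Schwann cells, and 6 of 8 of oligodendrocytes. Which of these cells hold Grm3 RNA was not tested. On the per-length scale NeuN-negative nuclei were led by Grik5 (78.0 ± 33.8 CPM per kilobase), Grin2c (27.0 ± 6.43), Gria4 (15.5 ± 4.66), Grik4 (13.7 ± 9.83), Gria1 (12.2 ± 1.60) and Grm3 (9.87 ± 2.89). Grin1, without which NMDA receptors do not form, was at 7.34 ± 4.20 there.

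The subunit make-up of each receptor was described as a share of the summed per-length level within a library, with no test. Among the GluN2 subunits, which set the kinetics of the NMDA receptor, Grin2d took 77.6% ± 4.63 (SD, n = 5) in healthy and 74.4% ± 4.84 in EAE NeuN-positive nuclei. Grin2b took 3.76% ± 1.99 and 9.72% ± 5.10 there. Without division by length Grin2d took 73.3% ± 7.31 and 61.3% ± 10.5, and Grin2b, a longer gene, 13.0% ± 6.14 and 28.3% ± 12.5. In NeuN-negative nuclei of healthy mice Grin2c led in all 5 libraries, at 82.7% ± 6.35. In EAE its share was 50.9% ± 22.6, from 23.0 to 73.8%, against 22.6 to 47.4% for Grin2d, and it led in libraries 1, 3 and 5 but not in 2 and 4, those with the highest mitochondrial share. Without division by length the EAE shares were 36.1% ± 23.7 for Grin2c and 34.0% ± 24.8 for Grin2b. Of the vesicular transporters Slc17a6 took 86.9% ± 7.85 and 87.5% ± 2.63 in the 2 NeuN-positive groups, Slc17a7 (VGLUT1) 10.3% ± 7.24 and 10.2% ± 3.70, and Slc17a8 (VGLUT3) 2.79% ± 0.823 and 2.34% ± 1.31. The transporter shares in NeuN-positive nuclei thus differed between healthy mice and EAE by less than 1 SD.

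In NeuN-positive nuclei of EAE mice 2 of the 32 genes fell, the kainate subunit Grik1 and the scaffold Shank1, and none rose, where 3.68% of all 16675 genes tested fell and 6.55% rose. At an unadjusted p under 0.05 the counts were 9 lower and 1 higher with edgeR. The share of all genes at that p is not given, here or below, so such counts cannot be set against it. After adjustment the counts of members were 5 lower and 1 higher with DESeq2 and 13 lower and 4 higher with limma voom. Of all 16675 genes DESeq2 called 1247 lower and 1746 higher, and limma voom 3882 lower and 3823 higher. The log2 change was below 0 in 26 of the 32 genes (81.2%), where it was below 0 in 51.7% of all genes tested. The median change of the members was -0.45, against -0.03 over all genes. No member was higher and 3 were lower in every EAE library than in any healthy library (Gria1, Grik3 and Grid1), where 5.16% of all genes were higher and 4.73% lower in that way. None of these 3 was called, with adjusted p of 0.0787, 0.0544 and 0.0702 (edgeR). Without EAE 2, EAE 4 and healthy 3, 1 gene was called higher (Gria4) and 1 lower (Shank1), 24 of 32 changes were below 0, and the median change was -0.19. Of all 17315 genes in that fit 1249 were called higher and 317 lower, 49.2% were below 0, and the median was 0.01.

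Grik1 encodes the GluK1 subunit, known from sensory and spinal dorsal horn neurons. It was at 52.2, 49.3, 21.6, 46.3 and 32.6 CPM in healthy NeuN-positive libraries and at 7.14, 2.06, 27.4, 3.03 and 4.79 CPM in EAE ones. EAE library 3 stood apart from the other EAE libraries and lay above healthy library 3, so the groups overlapped in that 1 library. The log2 change was -2.10 ± 0.56 (adjusted p = 0.0315, edgeR). The call was lost without EAE 1, EAE 2, EAE 4 or EAE 5 and without healthy 1, healthy 2 or healthy 4, where the change lay between -2.06 and -1.86, and it was lost with no count filter (-2.19) and without the 3 high-mitochondrial numbers (-1.65 ± 0.52, adjusted p = 0.074, edgeR). In NeuN-negative nuclei Grik1 changed by -1.06 ± 0.52 (adjusted p = 0.136, edgeR), and without those 3 numbers by -2.23 ± 0.38 (adjusted p = 0.000923, edgeR).

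Shank1 encodes a scaffold of the postsynaptic density that binds Homer proteins. It was at 136, 236, 253, 171 and 382 CPM in healthy and at 41.3, 45.2, 92.3, 159 and 66.7 CPM in EAE NeuN-positive libraries. Only EAE library 4 lay above a healthy library, library 1. The log2 change was -1.46 ± 0.38 (adjusted p = 0.0279, edgeR). Without EAE 1, EAE 2, EAE 5, healthy 2 or healthy 5 the call was lost, at changes of -1.48 to -1.24, while without EAE 2, EAE 4 and healthy 3 together it held (-1.68 ± 0.40, adjusted p = 0.0287, edgeR). The related scaffold genes Shank2 and Shank3 were not called, at -0.32 ± 0.20 and -0.43 ± 0.21, and neither was Dlg4 at -0.53 ± 0.22. Dlg4 was at 311, 159, 242, 171 and 281 CPM in the EAE libraries, of which library 1 overlapped the healthy range. Homer1 (0.17 ± 0.38) and Nlgn1 (-0.15 ± 0.23), which encodes a postsynaptic adhesion protein that binds neurexins, had the smallest changes of the scaffold and adhesion class.

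The other kainate and NMDA subunit genes were not called in NeuN-positive nuclei. Grik2 changed by -0.80 ± 0.36, Grik3 by -0.84 ± 0.26 and Grik5 by -0.57 ± 0.35. Grin2d changed by -0.35 ± 0.31 and Grin3a by -0.44 ± 0.28. Grik5 was at 702, 668, 1480, 1010 and 337 CPM in healthy and at 542, 339, 561, 722 and 553 CPM in EAE libraries, with wide overlap. Grin1 changed by -0.80 ± 0.32 (adjusted p = 0.113, edgeR), with 698, 281, 840, 794 and 515 CPM in EAE libraries, of which libraries 2 and 5 lay under the lowest healthy library and the other 3 inside the healthy range. The 2 positive changes among these classes were those of Grin2b, the GluN2B subunit (0.87 ± 0.58), and Grik4 (0.73 ± 0.43). Grin2b was at 37.8 to 284 CPM in healthy and 58.6 to 418 CPM in EAE libraries, a spread wider than the change. Grin3b was at 1.95 ± 0.599 against 0.877 ± 0.496 CPM, and 32.1% of its exon bases overlap those of Tmem259 on the other strand, so its reads cannot be told from that gene's where strand was not used in counting. The same limit holds for 13.5% of the bases of Grin1, with its antisense gene Grin1os, and for 9.66% of Grin2d, 9.60% of Grm2 and 9.16% of Nlgn1.

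Among the metabotropic receptor genes no call was made in NeuN-positive nuclei, although all 6 changes were below 0, where 51.7% of all genes tested were. They ran from -0.72 ± 0.25 for Grm5, a receptor coupled to calcium release, to -0.03 ± 0.22 for Grm7, a presynaptic receptor. Grm4 was at 95.5, 92.4, 87.3, 107 and 105 CPM in EAE libraries, overlapping its healthy range. The class median nearest to 0 was that of the transporter genes (0.17): Slc17a6 by 0.17 ± 0.26, Slc17a7 by 0.22 ± 0.41 and Slc17a8 by -0.10 ± 0.53. Slc17a6 was at 135, 113, 71.1, 77.8 and 148 CPM in EAE libraries, and its lowest and highest values were within 2 CPM of those in healthy mice. Grid1 was at 18.7, 25.5, 29.5, 13.1 and 17.5 CPM in EAE, all under its healthy libraries, with a change of -0.76 ± 0.25.

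**Figure D2:**
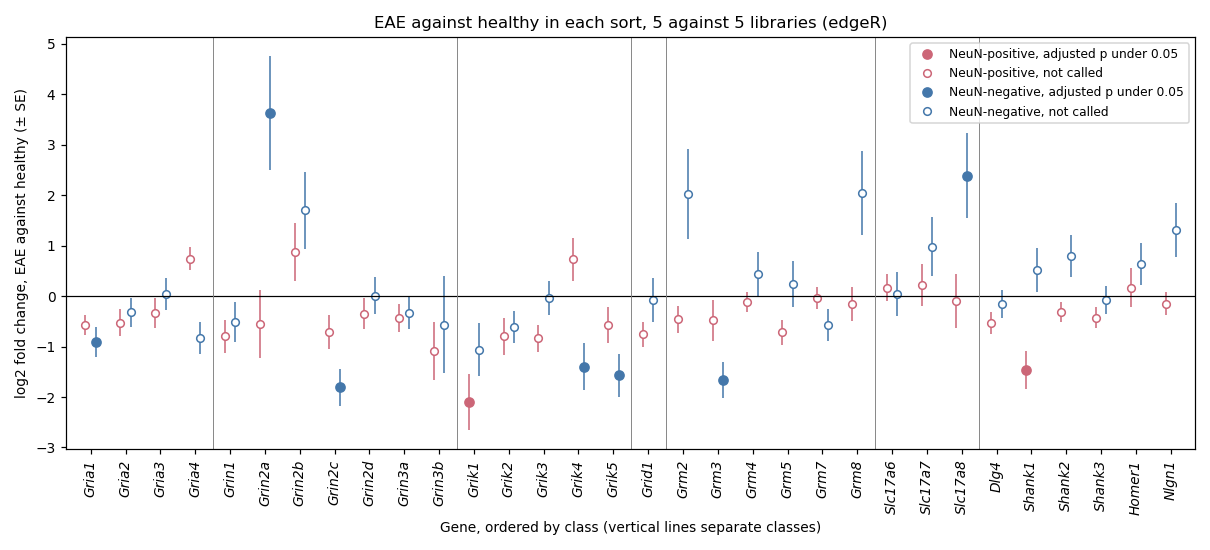
Log2 fold change of each of the 32 genes in EAE against healthy mice, with its standard error, in NeuN-positive and NeuN-negative nuclei (5 against 5 libraries each, edgeR); filled points passed an adjusted p of 0.05. In NeuN-positive nuclei 26 points lie below 0 and 2 are filled, and in NeuN-negative nuclei 2 filled points lie above 0 and 5 below.

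The AMPA receptor genes changed unequally in NeuN-positive nuclei. AMPA receptors carry fast excitation, and channels without the Gria2 product let calcium pass. Gria4 was at 463, 448, 326, 401 and 496 CPM in healthy and at 765, 437, 520, 689 and 962 CPM in EAE libraries. EAE library 2 fell inside the healthy range and the other 4 lay above it. Its change of 0.74 ± 0.23 was not called (adjusted p = 0.0582, edgeR), while without EAE 2, EAE 4 and healthy 3 it was (0.85 ± 0.22, adjusted p = 0.0417, edgeR). Gria1 went the other way, from 221, 237, 216, 221 and 203 CPM to 124, 98.0, 180, 164 and 136 CPM, with no overlap and a change of -0.57 ± 0.20. Gria2 changed by -0.53 ± 0.27 and Gria3 by -0.33 ± 0.30, with overlapping libraries.

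As a share of the summed per-length AMPA level, Gria4 took 43.2% ± 0.976 (SD, n = 5) in healthy NeuN-positive nuclei, with a range of 42.1 to 44.4%. In EAE it took 63.5% ± 6.96, with a range of 51.3 to 68.7%, so that the lowest EAE library stood above every healthy one. Gria1 went from 23.8% ± 4.68 to 14.3% ± 3.61, Gria2 from 16.2% ± 2.83 to 10.1% ± 1.95 and Gria3 from 16.8% ± 3.07 to 12% ± 3.42. Without division by gene length the share of Gria4 was 32.8% ± 2.05 in healthy and 52.7% ± 7.24 in EAE, and that of Gria2 30.0% ± 3.94 and 20.6% ± 3.13. NeuN-negative nuclei did not show this difference: Gria4 took 41.1% ± 3.19 of the per-length level in healthy mice and 36.4% ± 9.67 in EAE. The shares describe RNA in pooled nuclei and were not tested.

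**Figure D3:**
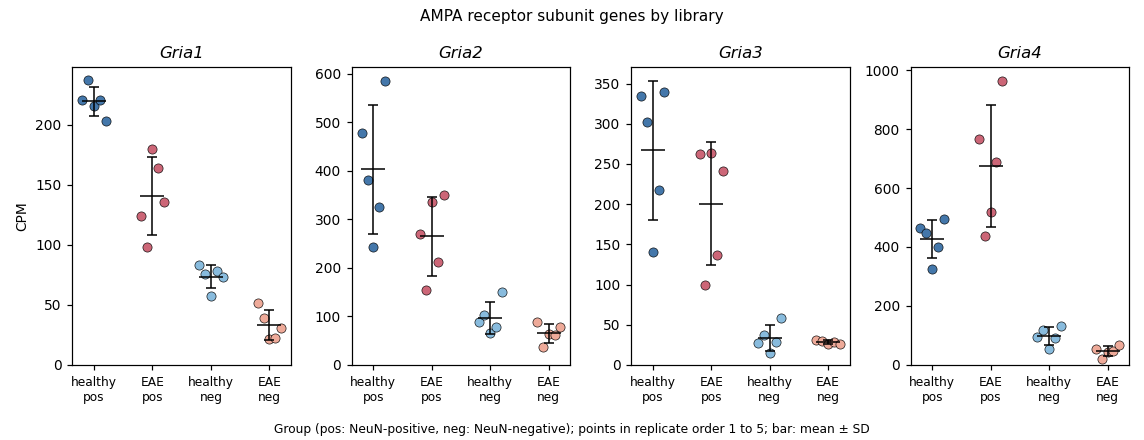
CPM of the 4 AMPA receptor subunit genes in each library of the 4 groups, with mean ± SD over 5 libraries. Gria4 is the 1 gene of the class whose mean is higher in EAE NeuN-positive (675 CPM) than in healthy NeuN-positive nuclei (427 CPM), while Gria1 is lower in every EAE library of both sorts.

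**Figure D4:**
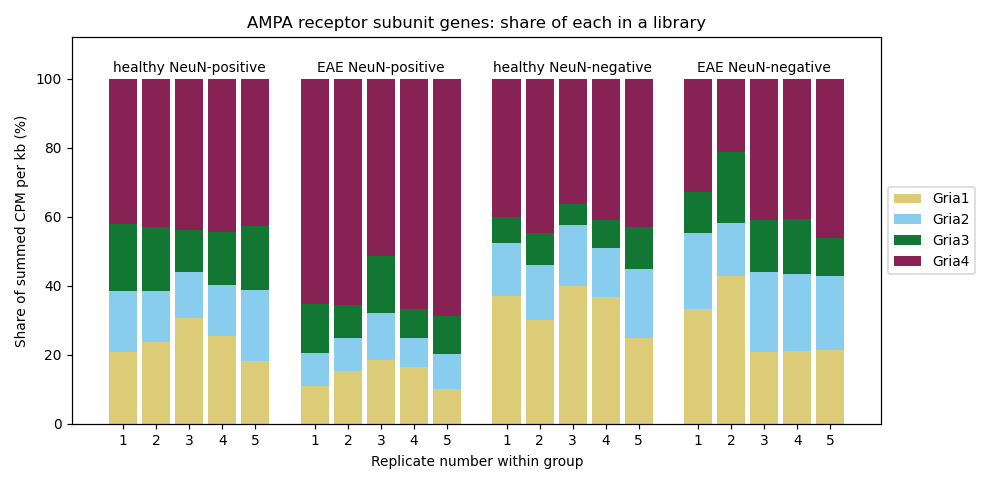
Share of each AMPA receptor subunit gene in the summed CPM per kilobase of the 4 genes, 1 bar per library. The Gria4 part is 42.1 to 44.4% in healthy and 51.3 to 68.7% in EAE NeuN-positive libraries.

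Markers of other cells moved in the same NeuN-positive comparison. Of 14 neuron markers 0 were called in either direction (2 higher and 1 lower at an unadjusted p under 0.05 with edgeR, 1 and 0 with DESeq2, 5 and 3 with limma voom). Among 8 markers each of excitatory and inhibitory neurons, 3 and 2 fell. Excitatory marker sums were 292 to 467 CPM in healthy and 207 to 445 CPM in EAE libraries, and inhibitory sums 367 to 642 and 270 to 309 CPM. All 8 monocyte and macrophage markers rose, from sums of 3.58 to 22.5 CPM to sums of 283 to 1790 CPM. All 5 T cell and all 4 neutrophil markers tested rose too, and 3 of 7 microglia markers tested. Of 8 oligodendrocyte markers 1 rose and 0 fell, and of 8 astrocyte markers 1 rose and 1 fell. The part of these cells and of the neuron types in the results above was not tested.

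In NeuN-negative nuclei of EAE mice 5 of the 32 genes fell (Gria1, Grin2c, Grik4, Grik5 and Grm3) and 2 rose (Grin2a and Slc17a8), where 12.6% of all 17604 genes tested fell and 15.1% rose. The share of members that fell (5 of 32) was thus close to that of all genes. The median change was -0.06 over the members and 0.05 over all genes. Libraries did not overlap in 5 genes, all lower in EAE (Gria1, Grin2c, Grik5, Grm3 and Grm7), where 11.5% of all genes were lower in that way and 7.13% higher. The change was below 0 in 17 of the 32 genes (53.1%), where it was below 0 in 48.2% of all genes tested. All 5 kainate subunit genes had a change below 0, from -1.57 to -0.04, and all 3 transporter genes a change above 0, from 0.04 to 2.39. The changes nearest to 0 in these classes, Grik3 at -0.04 ± 0.34 and Slc17a6 at 0.04 ± 0.43, were smaller than their standard errors. Without EAE 2, EAE 4 and healthy 3, 5 genes were called lower, with Grik1 in place of Grik4, and the same 2 higher. Of all 18333 genes in that fit 2258 were called lower and 3197 higher.

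Grin2c encodes the GluN2C subunit. It was at 155, 158, 161, 121 and 85.7 CPM in healthy and at 50.8, 15.2, 44.9, 16 and 43.4 CPM in EAE NeuN-negative libraries. The groups did not overlap, and the change was -1.81 ± 0.36 (adjusted p = 0.00185, edgeR). It held in all 18 alternatives tried, between -2.06 and -1.24. In NeuN-positive nuclei Grin2c was at 67.7, 79.8, 181, 131 and 49.1 CPM and at 61.7, 41.2, 79.6, 67.2 and 47.8 CPM, a change of -0.71 ± 0.34 (adjusted p = 0.181, edgeR).

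Grm3 was at 29.8 CPM in the median healthy NeuN-negative library and at 3.98, 7.10, 8.96, 9.82 and 9.93 CPM in the EAE ones. Its highest EAE library lay under its lowest healthy one (17.3 CPM), and the change was -1.66 ± 0.36 (adjusted p = 0.00327, edgeR). This call too held in all 18 alternatives, between -2.06 and -1.52. In NeuN-positive nuclei of EAE mice Grm3 was at 4.07, 4.12, 1.89, 1.44 and 3.28 CPM, and EAE NeuN-negative library 1 lay inside that range.

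Grik4 and Grik5 encode the high-affinity kainate subunits, which work only together with Grik1 to Grik3 products. Grik5 was at 338, 369, 653, 474 and 181 CPM in healthy and at 146, 39.7, 139, 132 and 143 CPM in EAE NeuN-negative libraries, with no overlap. EAE library 2 was far under the other 4 EAE libraries. The change was -1.57 ± 0.43 (adjusted p = 0.0145, edgeR), and it held in all 18 alternatives. Grik4 was at 46.6, 49.5, 176, 101 and 35.1 CPM against 24.5, 12.6, 24.9, 46.4 and 25.9 CPM, and EAE library 4 overlapped the healthy range. Its change of -1.40 ± 0.47 (adjusted p = 0.0360, edgeR) was -0.89 without healthy library 3 alone and -0.97 ± 0.36 without the 3 high-mitochondrial numbers (adjusted p = 0.0558, edgeR), and no call was made in either. The call was also lost without EAE 1, EAE 2, EAE 5 or healthy 4.

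Gria1 was at 83.0, 75.7, 57.4, 78.1 and 73.0 CPM in healthy and at 51.3, 39.0, 21.7, 22.7 and 30.3 CPM in EAE NeuN-negative libraries. Every EAE library lay under every healthy one, as in NeuN-positive nuclei, and the change was -0.91 ± 0.29 (adjusted p = 0.0286, edgeR). The call was lost without EAE 4, EAE 5, healthy 1 or healthy 2, at changes of -1.0 to -0.84. Gria4 was at 93.9, 117, 54.9, 90.7 and 132 CPM in healthy and at 52.8, 20.3, 44.7, 45.8 and 68.3 CPM in EAE, a change of -0.83 ± 0.31 that was not called (adjusted p = 0.0600, edgeR). Gria2 and Gria3 changed by -0.32 ± 0.29 and 0.04 ± 0.32.

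**Figure D5:**
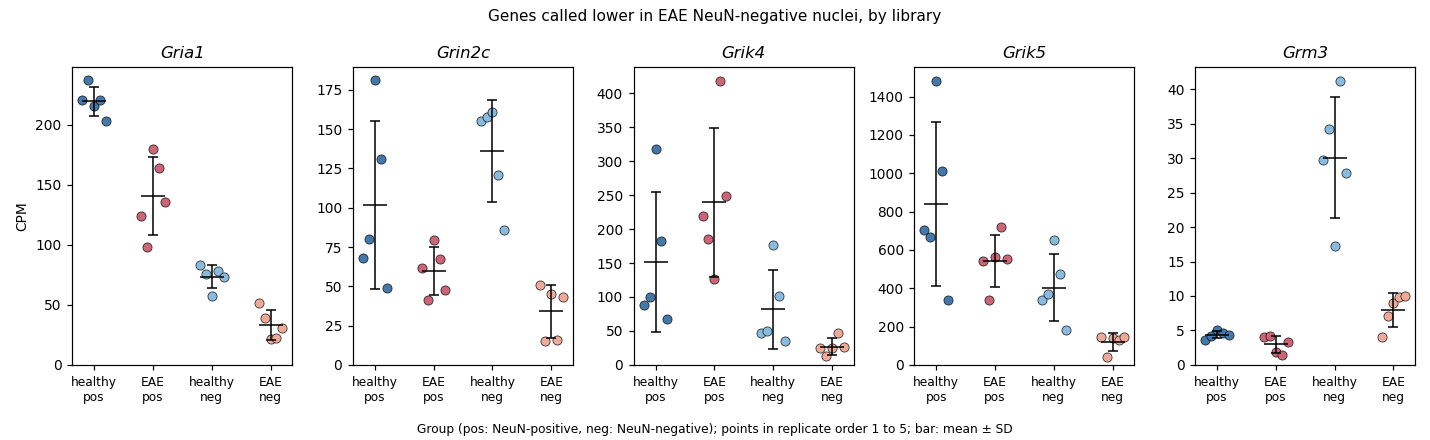
CPM of the 5 genes called lower in EAE NeuN-negative nuclei, in each library of the 4 groups, with mean ± SD over 5 libraries. Gria1, Grin2c, Grik5 and Grm3 do not overlap between healthy and EAE NeuN-negative libraries, and Grik4 overlaps through EAE library 4.

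The 2 genes that rose in NeuN-negative nuclei rested on few reads. Grin2a, the GluN2A subunit, was at 0.0508, 0.244, 1.81, 0.228 and 0.129 CPM in healthy and at 0.663, 12.3, 1.12, 6.55 and 3.02 CPM in EAE libraries. These levels came from 28 reads over the 5 healthy and 134 over the 5 EAE libraries, and the highest values were those of EAE 2 and EAE 4, the 2 EAE libraries with the largest mitochondrial shares. The change was 3.63 ± 1.13 (adjusted p = 0.0263, edgeR), and the call was lost without EAE 2 (2.78), without EAE 4 (3.38) or without healthy 1, 2, 4 or 5 (3.21 to 3.33). Without EAE 2, EAE 4 and healthy 3 together it was 3.56 ± 0.86 (adjusted p = 0.00841, edgeR), a fit that also leaves out the highest healthy value (1.81 CPM, healthy 3). Slc17a8 was at 0.559, 0.284, 1.42, 0.342 and 0.903 CPM in healthy and at 0.663, 1.94, 2.69, 6.34 and 3.54 CPM in EAE libraries, from 67 and 135 reads. Its change of 2.39 ± 0.84 (adjusted p = 0.0449, edgeR) lost its call without any 1 of EAE 2 to EAE 5 or of healthy 1, 2, 4 and 5, at 1.85 to 2.44, and with no count filter (1.94). In NeuN-positive nuclei, where both genes were not called, they changed by -0.55 ± 0.68 and -0.10 ± 0.53.

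Glial and immune markers moved in the same NeuN-negative comparison. Of 7 oligodendrocyte precursor markers 6 fell, and their sum was 561 to 1130 CPM in healthy and 128 to 371 CPM in EAE libraries. Without the 3 high-mitochondrial numbers 5 of the 7 fell. Among 8 astrocyte markers 2 fell, Fgfr3 and Slc7a10, at sums of 1840 to 3330 and 914 to 2700 CPM. All 8 had a change below 0, with a median of -0.74, where 48.2% of all genes tested had one. Of 8 oligodendrocyte markers 4 fell, at sums of 39600 to 70000 and 31500 to 113000 CPM. All 8 monocyte and macrophage markers and all 8 T cell markers rose, the first from sums of 20.3 to 65.8 CPM to sums of 667 to 2320 CPM. The part of these cells in the changes of Gria1, Grin2c, Grik4, Grik5 and Grm3 was not tested.

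Whether EAE changed a gene differently in the 2 sorts was tested on all 20 libraries. The change of Gria4 was higher in NeuN-positive than in NeuN-negative nuclei by 1.73 ± 0.45 on the log2 scale (adjusted p = 0.0393, edgeR). It was the 1 gene of 32 called, where 1.74% of all 20444 genes were called higher and 0.822% lower. No member was called lower with edgeR, where 6 had an unadjusted p under 0.05, and DESeq2 and limma voom called 2 and 6. Of all 20444 genes DESeq2 and limma voom called 862 and 1864 lower. Next were Grik4 at 2.26 ± 0.64 (adjusted p = 0.0532, edgeR), Grin2a at -3.99 ± 1.23 (adjusted p = 0.0752, edgeR) and Shank1 at -1.76 ± 0.58 (adjusted p = 0.0923, edgeR). With the replicate number as a block 1992 of all 20444 genes were called higher and 500 lower. Of the 32 members 4 were then called higher and 2 lower: Gria4 (1.73 ± 0.28, adjusted p = 0.00189, edgeR), Grik4 (2.23 ± 0.29), Grik5 (1.25 ± 0.30) and Grin2c (1.46 ± 0.40), and Grin2a (-3.46 ± 0.77) and Shank1 (-1.84 ± 0.38). The call of Gria4 was lost in 15 of 27 alternatives, among which the block is counted, 14 of them with 1 library left out (1.38 to 1.83) and 1 with no count filter. Without EAE 2, EAE 4 and healthy 3 it was 1.53 ± 0.32 (adjusted p = 0.017, edgeR). The median of all genes was 0.15 in this comparison and -0.11 with DESeq2 size factors, which also turned the split of all calls from 356 higher and 168 lower to 236 and 236, and Gria4 was called under both scalings. All 8 astrocyte, 8 oligodendrocyte, 7 oligodendrocyte precursor and 8 microglia markers were above 0 here, with medians of 1.66, 1.83, 1.45 and 1.74. Of these lists 1, 2, 1 and 2 markers were called. Of 14 neuron markers 9 were above 0 (median 0.39), and of 8 excitatory and 8 inhibitory ones 1 and 2. The part of these cells in the difference of Gria4 was not tested.

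Grik4 had the lowest adjusted p after Gria4 in that test. It was at 88.8, 99.5, 318, 182 and 67.9 CPM in healthy and at 219, 186, 126, 418 and 249 CPM in EAE NeuN-positive libraries, so that the groups overlapped widely. Healthy library 3, the healthy library with the highest mitochondrial share, was the highest of its group for Grik4, Grik5, Grin2c, Grin1 and Grin2b in NeuN-positive nuclei. The part of RNA quality in that library's values was not tested.

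In EAE mice 20 of the 32 genes were higher in NeuN-positive nuclei, where 15.5% of all 17982 genes were, and 1 was lower, where 14.8% were. Libraries did not overlap in 17 genes, all higher in NeuN-positive nuclei, where 12.2% of all genes were higher and 7.31% lower in that way. The median difference was 1.54, against -0.16 over all genes (-0.27 with DESeq2 size factors). The largest were those of Gria4 (3.78 ± 0.40), Grin1 (3.77 ± 0.43), Grin2d (3.72 ± 0.41) and Grik4 (3.05 ± 0.42). Grik4 and Grik5 (2.11 ± 0.38) were called here and not in healthy mice. Grik1 (0.60 ± 0.73), Grik2 (1.03 ± 0.44), Grm2 (0.71 ± 0.66) and Slc17a7 (0.92 ± 0.49) were called higher in healthy mice and not here. Grin2a (-0.35 ± 0.79), Slc17a8 (-0.36 ± 0.82), Grm8 (-0.14 ± 0.68) and Nlgn1 (-0.11 ± 0.50), all called higher in neuronal nuclei of healthy mice, were not called here, and their signs depended on the setting. Without EAE 2 and EAE 4 their differences were 0.97 ± 0.70, 0.62 ± 0.62, 1.29 ± 0.50 and 1.15 ± 0.33, of which that of Nlgn1 was called (adjusted p = 0.0183, edgeR). With limma voom Grm8 (1.28 ± 0.48) and Nlgn1 (0.96 ± 0.31) were called higher. Grm3 was called lower (-1.54 ± 0.56, adjusted p = 0.0462, edgeR), and this call was lost with the replicate block (-1.56 ± 0.59, adjusted p = 0.0593, edgeR) with no count filter (-1.30) and without any 1 of 7 EAE libraries. Without EAE 2 and EAE 4, 24 of 31 genes tested were higher and 1 lower, and the median was 2.02. Of all 18111 genes in that fit 3787 were higher and 3768 lower, with a median of -0.08.

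The sequence just before the annotated start of transcription is shown for 3 genes whose levels carry the comparisons above: Gria4, which differed between the sorts in its change with EAE, and Grin2c and Grm3, which fell in NeuN-negative nuclei in all alternatives. They are 250-base windows from RefSeq on GRCm38.p6, on the minus strand, written 5′ to 3′ toward the gene, and hold no annotated exon base. Gria4 is at chr9:4796235-4796484, Grin2c at chr11:115267244-115267493 and Grm3 at chr5:9725353-9725602. Capitals mark matches to any of 8 motifs on either strand.
Gria4: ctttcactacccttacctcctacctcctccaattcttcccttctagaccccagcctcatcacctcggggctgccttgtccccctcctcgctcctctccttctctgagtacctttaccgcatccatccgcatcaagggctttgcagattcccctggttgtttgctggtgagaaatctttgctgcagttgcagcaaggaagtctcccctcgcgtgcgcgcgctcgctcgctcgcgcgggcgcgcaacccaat
Grin2c: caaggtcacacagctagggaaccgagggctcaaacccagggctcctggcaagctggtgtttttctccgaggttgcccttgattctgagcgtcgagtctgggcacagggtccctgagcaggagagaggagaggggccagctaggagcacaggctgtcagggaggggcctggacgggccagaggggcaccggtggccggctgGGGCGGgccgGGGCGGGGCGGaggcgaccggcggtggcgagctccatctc
Grm3: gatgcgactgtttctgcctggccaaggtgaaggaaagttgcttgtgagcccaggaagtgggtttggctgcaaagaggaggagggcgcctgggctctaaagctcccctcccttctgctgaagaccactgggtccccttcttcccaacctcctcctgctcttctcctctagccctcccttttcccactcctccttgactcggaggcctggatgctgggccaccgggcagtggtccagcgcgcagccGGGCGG

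The motifs were searched on both strands of the 32851 RefSeq windows of this length. The cAMP response element, TGACGTCA, occurred in 1.55% of all windows. A shorter form contained in it, with the letters TGACG, occurred in 17.8%. The GC box, which reads GGGCGG, was present in 32.7% of windows, and the E box of the sequence CACGTG in 6.02%. A TATA box, searched as TATAAA, was found in 12.4%. The interferon-gamma activated site, TTCNNNGAA, was found in 7.02% and the core of the interferon-stimulated response element in 2.98%. Part of the site of the repressor REST, with the letters GGACAGC, was found in 5.28%. The window of Grin2c holds 3 GC boxes and that of Grm3 1, and the window of Gria4 holds none of the 8 motifs. Windows of Grik4 and Grik5, which also fell in NeuN-negative nuclei, hold 1 and 2 GC boxes. Genes not called there had them too, such as Grik3 with 6, Shank3 with 4, and Slc17a7 and Grm2 with 3 each. Windows of other uncalled genes, such as Grin1, Gria2 and Homer1, held none. GC content was 58.8% in the Gria4 window, 68.8% in Grin2c and 62.4% in Grm3. The median was 60.0% over the windows of the members and 52.4% over all windows. Windows were found for 21 of the 32 genes, and not for Gria1, which fell in NeuN-negative nuclei as well. These matches describe the windows only.

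Other genes of the same synapses were read from 6 lists with 59 genes in all. In NeuN-positive nuclei of EAE mice 5 of the 59 fell and none rose (4 higher and 13 lower at an unadjusted p under 0.05 with edgeR, 2 and 9 called with DESeq2, 9 and 17 with limma voom). Of all 16675 genes 3.68% fell and 6.55% rose with edgeR. DESeq2 called 1746 of them higher and 1247 lower, and limma voom 3823 and 3882. Of 14 auxiliary subunit genes, whose products bind AMPA or kainate receptors and steer their traffic and gating, 4 fell. Cnih2, a cornichon that slows AMPA receptor closing, fell from 51.7 ± 7.65 to 22.6 ± 9.50 CPM with no overlap (-1.12 ± 0.27, adjusted p = 0.0182, edgeR). Cacng8 and Cacng7, which encode transmembrane AMPA receptor regulatory proteins, fell by 1.34 ± 0.32 and 1.85 ± 0.45 on the log2 scale (adjusted p = 0.019 and 0.0196, edgeR). The other 2, Cacng5 (-0.82 ± 0.24, adjusted p = 0.0425, edgeR) and Cbln1, a secreted partner of delta receptors (-0.88 ± 0.24, adjusted p = 0.0363, edgeR), are named after their values were seen. Without EAE 2, EAE 4 and healthy 3, Cacng7 (-1.71 ± 0.43) and Cacng8 (-1.33 ± 0.35) were still called, and Cnih2 (-0.80 ± 0.22, adjusted p = 0.0502, edgeR), Cacng5 and Cbln1 were not.

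In NeuN-negative nuclei 4 of the 59 genes rose and 10 fell, where 15.1% of all genes tested rose and 12.6% fell. Cacng7 fell there too (-1.80 ± 0.40, adjusted p = 0.00414, edgeR). Between the healthy sorts, 42 of 58 tested were higher and 7 lower on the NeuN-positive side, where 22.8% and 23.0% of all genes were. Grip2, a scaffold that binds AMPA receptors, was higher by 4.02 ± 0.25 and Slc1a6, a neuronal glutamate uptake transporter, by 3.81 ± 0.46. Slc1a3, an astrocyte uptake transporter, had a log2 difference of -3.11 ± 0.28 and Glul, the glutamine synthetase of astrocytes, had a log2 difference of -2.85 ± 0.29. In EAE mice NeuN-positive nuclei had 30 of the 59 higher and 2 lower, where 15.5% and 14.8% of all genes were. The EAE change of 1 of the 59 differed between the sorts, that of Cacng5 (-2.29 ± 0.61, adjusted p = 0.0405, edgeR), and none had a higher change in NeuN-positive nuclei (8 higher at an unadjusted p under 0.05 with edgeR, 2 called with DESeq2, 13 with limma voom). Of all 20444 genes 1.74% were called higher and 0.822% lower with edgeR. DESeq2 called 649 of them higher and limma voom 3066.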

How the data were processed

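RNA of sorted spinal cord nuclei was purified on RNeasy columns and made into polyadenylated TruSeq libraries, per the labels' protocols. The authors deposited 1 table of raw read counts by gene, without normalization. STAR 2.4 and DESeq2, and the builds GRCm39 and mm10 with no role stated, are named in the submitters' processing notes. How reads were counted, with which annotation and with or without strand, is not given in the sources used here. Gene lengths and exon overlaps were taken by gene identifier from GENCODE M21 (GRCm38).

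Groups came from the titles. Each comparison was fitted with edgeR 4.0.16 (R 4.3.3): filterByExpr, TMM, a robust quasi-likelihood fit and Benjamini-Hochberg adjustment over every gene in the fit. Calls were made under an adjusted p of 0.05. Comparisons of 2 groups used their 10 libraries and the difference of EAE changes all 20. Errors of log2 changes are standard errors. CPM was scaled with TMM over the 20 libraries. The procedure was tested on simulated data.

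The 32 genes, the other lists and the tests were chosen with earlier results of these data known. All 32 are reported. Every library is printed for those called with EAE or in the difference, in the groups where the call was made, and for the leader of each class per length in healthy nuclei. Of the 59 other genes, the rule took up to 3 per direction by lowest p in EAE NeuN-positive nuclei and the 2 largest differences each way between the healthy sorts. Marker lists held 103 genes of 14 cell types.

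Results were recomputed with the Wald test of DESeq2 1.42.0, with its size factors inside edgeR, with limma 3.58.1 (voom, quality weights), no count filter, at least 1 CPM in at least 5 libraries, a replicate block, 1 fit on all 20 libraries and each library left out. Leaving out EAE 2, EAE 4 and healthy 3 together was chosen after the data were seen. For the pairing check, deviations from group means of same-numbered NeuN-positive and NeuN-negative libraries correlated at 0.115 to 0.379 in EAE and 0.28 to 0.7 in healthy mice. All were over the limit of 0.1, and on that ground alone the replicate block treated them as pairs. The main fits used no block and took the libraries as unpaired. Healthy 2 correlated more with another number (0.288 against 0.28), so the pairing is an assumption.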

Additional observations from a re-analysis of the deposited data

Results flagged for a closer look

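In 10 of 128 sets of 5 libraries (32 genes in 4 groups), the highest or lowest library stood apart from the other 4 by more than the 95% limit of Dixon's ratio of gap to range (0.71). Chance alone flags about 1 in 20 such sets. In healthy NeuN-positive nuclei these were Grin2b in library 3 (284 CPM, others 37.8 to 96.2) and Grm4 in library 3 (145 CPM, others 98.5 to 104). In EAE NeuN-positive nuclei they were Grik1 in library 3 (27.4 CPM, others 2.06 to 7.14), Grm7 in library 2 (36.0 CPM, others 68.3 to 79.9) and Homer1 in library 2 (17.8 CPM, others 6.05 to 7.82). Healthy NeuN-negative nuclei had 4: Grin2a in library 3 (1.81 CPM, others 0.0508 to 0.244), and in library 5 Grid1 (20.6 CPM, others 7.23 to 10.3), Grm5 (31.7 CPM, others 8.59 to 12.9) and Nlgn1 (14.1 CPM, others 5.95 to 8.0). In EAE NeuN-negative nuclei it was Grik5 in library 2 (39.7 CPM, others 132 to 146).

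The change with EAE differed between the NeuN-positive and NeuN-negative nuclei for 1 of the 32 genes and 1 of the 59 others, by a test of the difference itself with edgeR. It was higher in NeuN-positive nuclei for Gria4 (1.73 on the log2 scale) and lower there for Cacng5 (-2.29). Of all 20444 genes 1.74% were called higher and 0.822% lower in that test. The call of Gria4 was lost in 15 of 27 alternatives.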

How the results depend on the processing

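Of the calls of the 32 genes, all 27 between the healthy sorts, 16 of 21 between the EAE sorts, 3 of 7 in EAE NeuN-negative nuclei (Grin2c, Grik5, Grm3), 0 of 2 in EAE NeuN-positive nuclei and 0 of 1 in the difference held under every alternative. No called gene reversed. Where a call or count moved, the cause was not tested. Counts of all genes moved with the setting too. In EAE NeuN-positive nuclei limma voom called 3823 genes higher and 3882 lower, against 1092 and 613 in the main fit. In EAE NeuN-negative nuclei it called 4517 and 4552, against 2650 and 2220. In EAE NeuN-positive nuclei the count of genes higher (0) was 1 with DESeq2, 4 with limma voom and 1 without EAE 2, EAE 4 and healthy 3, and 0 to 2 with 1 library left out. The count lower (2) was 5, 13 and 1, and 0 to 6: 6 without EAE 3, 3 without healthy 3, 1 without EAE 4, healthy 1, 4 or 5, and 0 without EAE 1, 2, 5 or healthy 2. In EAE NeuN-negative nuclei the count higher (2) was 5 with DESeq2, 8 with limma voom, 1 with no count filter, 1 with the replicate block and 4 in 1 fit on all 20 libraries, and 0 to 5 with 1 library left out: 5 without healthy 3, 3 without EAE 1 or 3, 1 without EAE 5 and 0 without any other. The count lower (5) was 8 with limma voom and 8 on all 20 libraries, and 3 to 5 (3 without EAE 5). Between the healthy sorts the count lower (1) was 3 with limma voom and 2 with the replicate block. Between the EAE sorts (1) it was 0 with no count filter and 0 with the block, and 0 to 1. In the difference, the count higher (1) was 2 with DESeq2, 5 with limma voom and 4 with the block, and 0 to 2. The count lower (0) was 2, 6 and 2, and 0 to 3. Libraries of the same number in EAE and healthy mice correlated at -0.335 to 0.275, so they share only a number, and the block lost the call of Slc17a8 in EAE NeuN-negative nuclei (2.19) and no other there or in EAE NeuN-positive nuclei.

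Shares without division by length, in healthy and EAE NeuN-positive nuclei, were 17.4% in healthy mice for Gria1, 30.0 and 20.6% for Gria2, 32.8 and 52.7% for Gria4, 0.688 and 0.656% for Grin2a, 13.0 and 28.3% for Grin2b, 13.0 and 9.78% for Grin2c, and 73.3 and 61.3% for Grin2d. Slc17a7 in EAE NeuN-positive nuclei was -0.02 without EAE 2 (-0.02 to 0.63 over libraries left out). Homer1 between the healthy sorts was -0.20 to 0.14 with 1 library left out, and Grik1 between the EAE sorts -0.44 without EAE NeuN-positive 3 (up to 1.0 without another). Between the EAE sorts Grm8 was 1.28 with limma voom, 0.23 with no filter, 0.42 with the block, 0.05 on all 20 libraries and 1.29 without EAE 2 and EAE 4, and -0.36 to 0.36 with 1 library left out. Nlgn1 there was 0.96, 0.28, 0.34, 0.08 and 1.15, and -0.28 to 0.67. Grm8 and Nlgn1 were called higher with limma voom, and Nlgn1 also without EAE 2 and EAE 4. Depth limits the genes under 1 CPM, such as Grin2a and Slc17a8 in healthy NeuN-negative nuclei, where a library held as few as 1 and 3 reads.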
